A study of Homo sapiens with 3 samples.

Results

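The 49 genes described here encode the machinery that licenses origins of DNA replication, fires them and copies DNA at the fork. They were chosen by name, not by their level: 6 subunits of the origin recognition complex, 3 genes of the loaders and their inhibitor, 6 subunits of the MCM hexamer, 8 genes of the CMG helicase and its activation, 9 polymerase subunits, 6 genes of the sliding clamp and its loader, 3 RPA subunits, 2 genes of Okazaki fragment maturation, 4 genes of nucleotide supply and 2 of fork protection. All 49 were found among the 61193 genes to which the measured transcripts belonged, of which 19926 were protein-coding.

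Their messages were read out by RNA-seq from 3 replicates of HEK293T grown under 1 condition, so that all values are descriptions without a test between groups. HEK293T is a line of human embryonic kidney origin with the SV40 large T antigen, a viral protein known to bind the retinoblastoma protein and so to release E2F transcription factors. Cells were seeded at 1500000 per flask in DMEM with 10% FBS and taken 24 h later, with 3000000 cells per sample and 2 µg of RNA per library. The libraries were of the QuantSeq 3′ type, in which reads come from near the 3′ end of a message, and reads were counted per annotated transcript.

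As background, replication is prepared before S phase, when the origin recognition complex, ORC, marks origins and CDC6 and CDT1 load the MCM2 to MCM7 hexamer onto DNA, a step blocked later by geminin, the product of GMNN. In S phase the kinase CDC7 with its activator DBF4 and the cyclin-dependent kinases turn the loaded hexamer into the CMG helicase, which is CDC45, MCM and GINS together. Polymerase alpha-primase then starts each strand, RFC loads the PCNA clamp, polymerases epsilon and delta extend the leading and lagging strands, RPA coats single-stranded DNA, and FEN1 and LIG1 join the lagging strand pieces. Many of these genes are textbook targets of E2F, which is why their promoters were searched for E2F-type sites.

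The promoter stretches that follow are shown because they carry such sites in genes with high counts. The sequences are those of RefSeq on GRCh38.p14, read 5′ to 3′ on the strand of the gene, upstream of the transcription start, with the matched letters in capitals.
CDT1, chr16:88803714-88803788, plus strand: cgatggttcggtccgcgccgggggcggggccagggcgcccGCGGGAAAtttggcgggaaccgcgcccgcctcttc
GINS2, chr16:85688955-85689025, minus strand: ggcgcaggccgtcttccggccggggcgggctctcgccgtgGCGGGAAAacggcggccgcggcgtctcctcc
MCM6, chr2:135876482-135876635, minus strand: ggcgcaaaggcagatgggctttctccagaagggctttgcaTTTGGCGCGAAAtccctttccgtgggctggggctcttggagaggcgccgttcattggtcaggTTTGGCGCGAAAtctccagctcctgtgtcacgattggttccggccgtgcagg
RFC3, chr13:33818054-33818141, plus strand: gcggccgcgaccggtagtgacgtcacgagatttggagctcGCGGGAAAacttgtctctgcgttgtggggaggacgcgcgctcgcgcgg

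CDT1, GINS2 and RFC3 each held 1 site in the stretch shown, at -35 to -28, -31 to -24 and -55 to -48 from the start. MCM6 held 4 matches in 2 overlapping pairs, since TTTGGCGC on one strand and TTTCGCGC on the other share letters, and 1 pair lay at -152 to -141 and the other at -90 to -79 from the start.

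The next stretches are from genes with 4 or fewer counts in all 3 replicates together, and are shown because they carry the same letters as the former ones.
MCM3, chr6:52284869-52284956, minus strand: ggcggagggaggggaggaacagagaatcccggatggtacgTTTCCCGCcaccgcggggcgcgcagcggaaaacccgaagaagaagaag
MCM7, chr7:100101398-100101624, minus strand: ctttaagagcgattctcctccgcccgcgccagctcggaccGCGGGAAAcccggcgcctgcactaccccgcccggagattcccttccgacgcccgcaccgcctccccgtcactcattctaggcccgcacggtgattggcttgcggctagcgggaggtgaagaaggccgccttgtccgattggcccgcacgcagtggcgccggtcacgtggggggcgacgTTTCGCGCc
LIG1, chr19:48170411-48170498, minus strand: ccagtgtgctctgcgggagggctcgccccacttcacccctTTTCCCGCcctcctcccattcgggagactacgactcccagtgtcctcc

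MCM7 held a site at -187 to -180 and a second at -9 to -2. MCM3 held 1 site in the stretch shown, at -174 to -167, and a second one across its start. LIG1 held 1 site, at -114 to -107. The same letters were thus present before genes with high counts and before genes with nearly none. The 3′ ends of MCM3, MCM7 and LIG1 are shared throughout by several listed transcripts, as described further on. Those of CDT1, GINS2, MCM6 and RFC3 are free on their own strand. The part of this in the counts was not tested, and the counts are not a measure of message levels by themselves.

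The libraries held 6262175 to 8521624 counts. A count of 0 allows up to 3 counts, which is 0.352 to 0.479 CPM, counts in 1000000 of the library, and this limit covers counting error only. Mitochondrial genes took 9.59% of the counts in replicate 1, 5.70% in replicate 2 and 25.8% in replicate 3, so that the nuclear genes together had a smaller share of the total in replicate 3. Of the markers of this line and of dividing cells, LIN28B stood at 40.8 ± 14.8 TPM and TOP2A at 764 ± 248 TPM (SD, n = 3), PAX2 at 8.96 ± 3.24 TPM and NES at 2.32 ± 0.46 TPM. VIM had 0, 6 and 5 counts, KRT8 had 17, 8 and 27, MKI67 had 0, 3 and 0, and NEFM, NEFL and KRT18 had none. The ends of VIM, MKI67, NEFM and PAX2 are shared throughout, and those of TOP2A and KRT18 by 99.7% and 98.0%. Those of LIN28B, NES and NEFL are free. The part of the shared ends in these counts was not tested. Of 10 markers of other cell types, 7 had no count and PECAM1 had at most 2 in a replicate, while COL1A1 stood at 24.8 ± 0.33 TPM and COL3A1 at 1.68 ± 0.93 TPM. Among those without a count, CD3E, MYH6, INS and HBB have ends shared throughout, and PTPRC, ALB and GFAP ends shared in part. In such bulk RNA, fewer cells that express a gene and less RNA per cell cannot be told apart.

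Levels are compared between genes as TPM, in which counts are divided by the transcript length, rescaled to 1000000 per library and summed per gene. With a mean of at least 1 TPM taken as expressed, 35 of the 49 replication genes were expressed, against 38.2% of the protein-coding genes and 21.7% of all genes. The high category, at or above the third quartile of the expressed genes, 24.1 TPM, held 15 members, against 12.5% of the protein-coding genes. A further 13 were medium, 7 were low, at or below 2.40 TPM, and 14 were under the threshold. The members spanned from no count at all to 521 TPM, with a median of 3.85 TPM over all 49 and of 12.0 TPM over the expressed ones, beside 10.5 TPM over the expressed protein-coding genes.

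At the other end, 11 members had at most 3 counts in every replicate, against 50.9% of the protein-coding genes. These were ORC1, MCM2, MCM3, MCM7, CDC45, CDC7, POLD1, POLD2, RFC2, RPA1 and LIG1, and they include subunits of complexes whose other subunits were among the highest. Of these 11, 9 have a 3′ end that several listed transcripts share throughout, and ORC1 has one shared by 99.3%, as described further on. Of the 10142 protein-coding genes with counts as low, 4922 have an end shared throughout. The part of these ends in the low counts was not tested. A low count here is not a measure of a low message level by itself. Summed over the members, the counts came to 29173, 27510 and 32111, of which CDT1, MCM6, GINS2, CDC6 and GINS1 together held 68.8%, 69.5% and 68.6%.

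**Figure D1:**
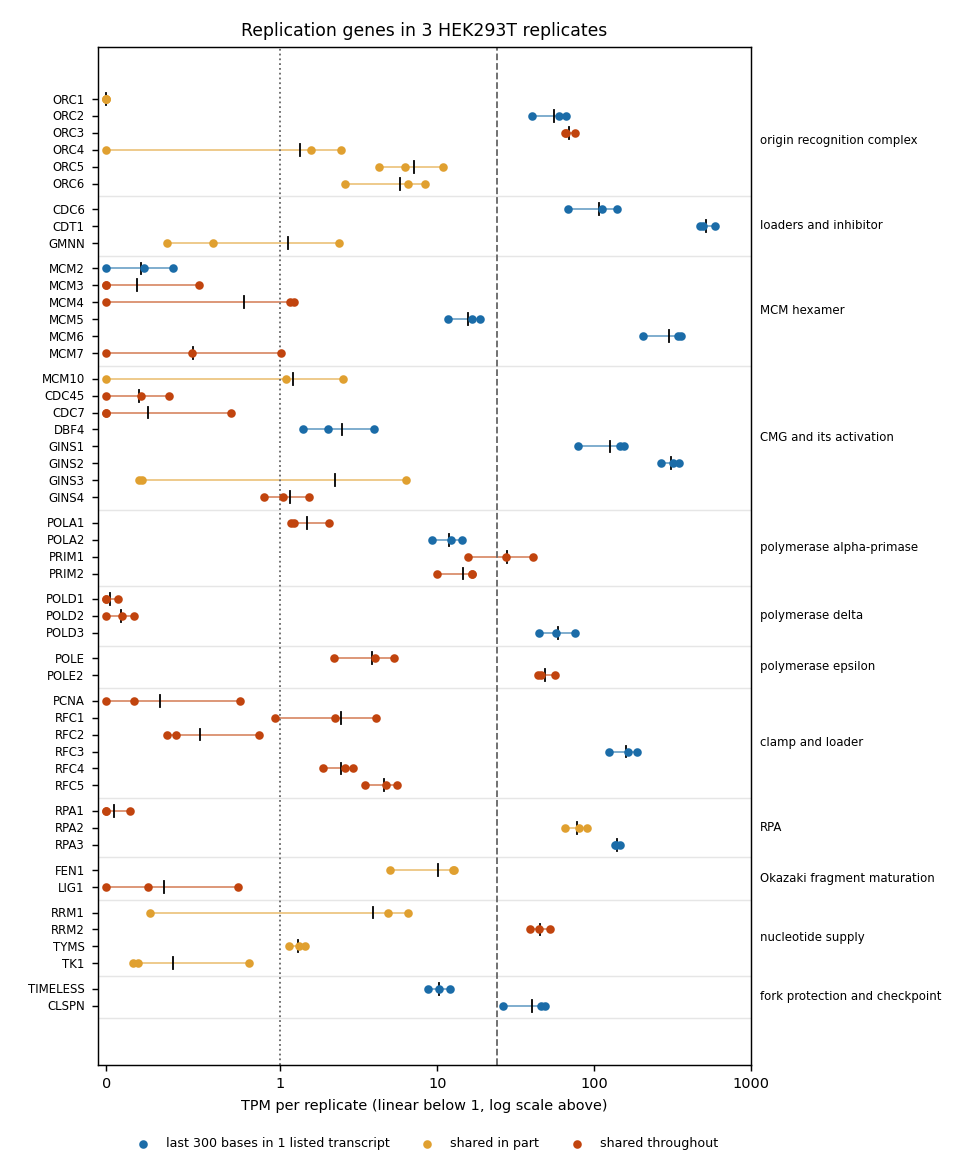
TPM of each replication gene in the 3 replicates (points, x axis linear below 1 and log above), with the mean as a black bar, the threshold of 1 TPM dotted and the third quartile of the expressed genes, 24.1 TPM, dashed. Colours give the annotation of the 3′ end, and within the MCM hexamer, ORC, RFC and RPA the subunits lie on both sides of the dotted line.

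The origin recognition complex is a ring of ORC1 to ORC5 joined by ORC6. ORC2 had 1161, 1084 and 1141 counts and ORC3 had 165, 118 and 209. On the TPM scale they stood at 55.3 ± 13.4 and 69.1 ± 6.1 (SD, n = 3), and the replicate ranges overlapped. The order of the pair thus depended on the scale, since ORC3 was counted almost wholly, 94.7%, on a transcript of 471 bases and ORC2 on one of 4288 bases. ORC5 followed at 7.13 ± 3.43 TPM and ORC6 at 5.80 ± 2.93 TPM, with overlapping ranges. ORC6 was uneven, with 52, 17 and 101 counts. ORC4 had 5, 0 and 10 counts and ORC1, the largest subunit, had 0 in each replicate. The ends of ORC1, ORC4, ORC5 and ORC6 are shared by 97.0% to 99.7% and that of ORC3 throughout, while that of ORC2 is free.

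The loaders were among the highest of the set. CDT1, which delivers the MCM hexamer to ORC, had 5993, 6072 and 8394 counts, or 496, 594 and 472 TPM, the highest value of the set in every replicate. CDC6, the ATPase that joins ORC for loading, had 2315, 2458 and 2057 counts and stood at 107 ± 37 TPM. GMNN, which encodes the inhibitor of CDT1, had 2, 8 and 4 counts. Its end is shared by 98.7%, and those of CDT1 and CDC6 are free.

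The 6 MCM subunits, which form the ring of the helicase in equal numbers, differed widely in their counts. MCM6 had 5809, 5146 and 5154 counts, or 341, 358 and 206 TPM. MCM5 had 261, 251 and 266 counts and 15.7 ± 3.7 TPM, so that every replicate of MCM6 lay above every one of MCM5. MCM4 had 3, 0 and 5 counts, MCM7 had 1, 0 and 3, MCM3 had 0, 2 and 0, and MCM2 had 0, 1 and 1. Each of the last 4 overlapped with the others at this depth, and for MCM2, MCM3 and MCM7 no ratio to MCM6 is given because they were at the limit. The ends of MCM3, MCM4 and MCM7 are shared throughout, and those of MCM2, MCM5 and MCM6 are free on their own strand. The part of the shared ends in these counts was not tested. MCM6 (ENSG00000076003) lies on the minus strand at chr2:135839626-135876443, and MCM2 (ENSG00000073111) on the plus strand at chr3:127598410-127622436.

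In the CMG and the step that activates it, GINS was split in the same manner. GINS2 had 3781, 3508 and 4671 counts and GINS1 had 2162, 1948 and 1741. They stood at 311 ± 41 and 127 ± 42 TPM, and their replicate ranges did not overlap. GINS4 had 14, 7 and 14 counts, 1.16 ± 0.33 TPM, and the mean of GINS2 was 269 times that of GINS4 on the TPM scale. GINS3 had 3, 6 and 4 counts, and its 6.29 TPM in replicate 2 came almost wholly from 5 counts on a transcript of 210 bases, so that without that replicate GINS3 became the lowest subunit and the ratio was 1482. In CPM, GINS3 was the lowest with all 3 replicates, and the ratio was 888. These ratios compare counted transcripts and are not a measure of gene levels. GINS2 was counted wholly on its canonical transcript. The canonical transcripts of GINS3 and GINS4, with ends shared by 98.7% and 100%, had no count. CDC45 had 1, 1 and 0 counts, and MCM10, which acts with CDC45 at activation, had 5, 5 and 0. Of the activating kinase, CDC7 had 0, 2 and 0 counts and its regulatory partner DBF4 had 66, 28 and 34. The ends of CDC45 and CDC7 are shared throughout and that of MCM10 by 98.0%, while that of DBF4 is free.

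All 4 subunits of polymerase alpha-primase were over the threshold of 1 TPM. PRIM1, the catalytic primase subunit, had 234, 293 and 196 counts and 28.0 ± 12.5 TPM. PRIM2, the large primase subunit, stood at 14.5 ± 3.9 TPM and POLA2, the accessory subunit, at 12.0 ± 2.6 TPM, with overlapping ranges. POLA1, the catalytic polymerase subunit, had 6, 10 and 13 counts, and PRIM1 was 19.0 times as high on the TPM scale, with POLA1 lowest in every replicate. The canonical transcripts of PRIM1 and POLA1, with ends shared throughout, had no count. Their ratio thus compares other transcripts and is not a measure of gene levels.

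Of polymerase delta, the accessory subunit POLD3 had 863, 956 and 971 counts and 59.3 ± 15.4 TPM. The catalytic POLD1 had 1, 0 and 0 counts and POLD2 had 0, 1 and 1. The ends of POLD1 and POLD2 are shared throughout, and that of POLD3 is free. Of polymerase epsilon, POLE2 had 124, 87 and 144 counts and the catalytic POLE had 30, 8 and 31. Both have an end shared throughout. POLE2 reached 48.7 ± 6.4 TPM because 96.6% of its counts fell on a transcript of 496 bases, and its rank among the members was 12 by TPM and 18 by CPM.

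The counts of the clamp and its loader were unequal as well. PCNA, the clamp itself and a usual marker of S phase, had 1, 4 and 0 counts. RFC3, a small subunit of the loader, had 1698, 1646 and 1917 counts and 159 ± 32 TPM. RFC5, RFC4 and RFC1 stood at 4.58 ± 1.07, 2.45 ± 0.54 and 2.42 ± 1.56 TPM, with overlapping ranges for RFC1 against either, and RFC2 had 3, 1 and 2 counts. In RPA, RPA3 had 1262, 1049 and 1962 counts and 140 ± 5 TPM, RPA2 had 575, 546 and 687 counts and 78.3 ± 12.5 TPM, and RPA1, the subunit that makes most of the contact with DNA, had 3, 0 and 0. The ends of PCNA, RFC1, RFC2, RFC4, RFC5 and RPA1 are shared throughout and that of RPA2 by 57.0%. Those of RFC3 and RPA3 are free. The part of the shared ends in these counts was not tested.

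FEN1, the flap nuclease, had 116, 98 and 67 counts, and LIG1, the ligase of the lagging strand, had 2, 0 and 1. In nucleotide supply, RRM2, the S phase subunit of ribonucleotide reductase, had 162, 141 and 188 counts and 45.2 ± 6.5 TPM. Most of this TPM, 30.5, 39.3 and 29.4 in the 3 replicates, came from 46, 50 and 65 counts on a transcript of 332 bases. RRM1, the partner of RRM2, had 14, 3 and 30 counts, TYMS, the thymidylate synthase, had 6, 4 and 8, and the thymidine kinase TK1 had 1, 1 and 4. Both fork protection genes were expressed, CLSPN, the claspin adaptor of the checkpoint, with 1662, 1490 and 1412 counts and 40.4 ± 12.2 TPM, and TIMELESS with 281, 203 and 301 counts and 10.3 ± 1.6 TPM.

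Ordered by level, CDT1 stood alone at the top, with every replicate above those of the other 48 genes. GINS2 and MCM6 followed, with overlapping ranges. RFC3, RPA3, GINS1 and CDC6 came next, at 159, 140, 127 and 107 TPM, and the replicate ranges of these 4 overlapped, as did those of RPA2 and ORC3 below them. The 3 highest by TPM were also the 3 highest by CPM. ORC3 fell from rank 9 by TPM to rank 17 by CPM, while CLSPN, whose counted transcript has 8512 bases, rose from rank 14 to rank 7.

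**Figure D2:**
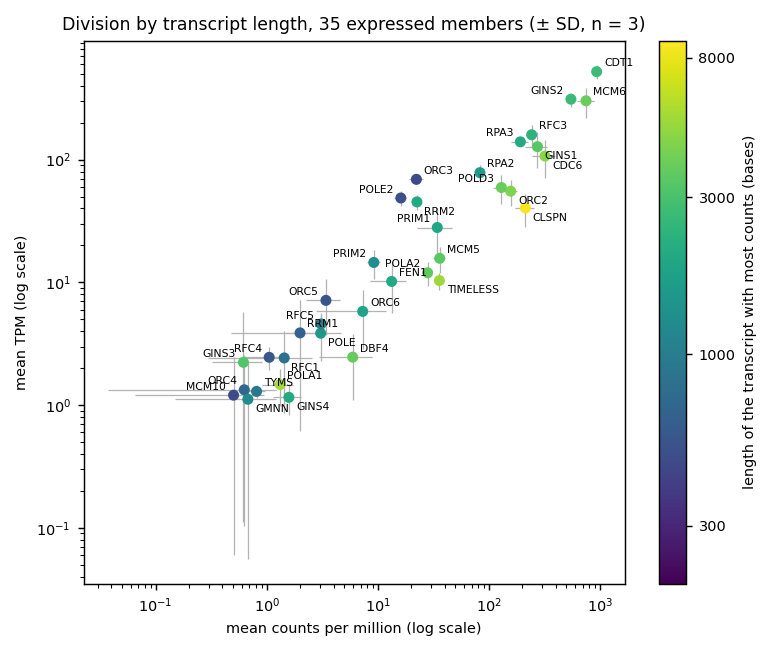
Mean TPM against mean CPM of the 35 expressed members on log axes, with bars of ± SD over n = 3 replicates, cut short at the lower end where they would reach 0, and with the colour giving the length of the transcript that holds most counts. ORC3 and POLE2, counted on transcripts of 471 and 496 bases, lie above the run of the other genes, and CLSPN, of 8512 bases, lies below it.

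Reads of this library type come from the 3′ end, so the annotation of that end was set beside the counts. For each gene the 300 exonic bases at the end of the canonical transcript were examined, and a base was called shared where a second listed transcript covered it on the same strand. The end was shared throughout in 22 of the 49 members, a share near the 40.5% of protein-coding genes, shared in part in 12 and free in 15.

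The counts differed between these classes. The 15 members with a free end had a mean count over the replicates whose median was 1424, the 12 shared in part had 5.5 and the 22 shared throughout had 5.33. Over all protein-coding genes the medians were 23.8, 1.00 and 0.333 in the same order, so that the order was not particular to replication genes. How the counting treated reads on shared bases is not given in the sources used here, and its part in these values was not tested.

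Of the 22 members shared throughout, 9 were at the limit, against 62.8% of the protein-coding genes of that class, and the highest count in any replicate was 293, for PRIM1. Of the 13 members free on both strands, none was at the limit, against 37.0% of the protein-coding genes so annotated, and their counts ran from 28 for DBF4 to 8394 for CDT1. These 13 are ORC2, CDC6, CDT1, MCM5, MCM6, DBF4, GINS1, POLA2, POLD3, RFC3, RPA3, TIMELESS and CLSPN.

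**Figure D3:**
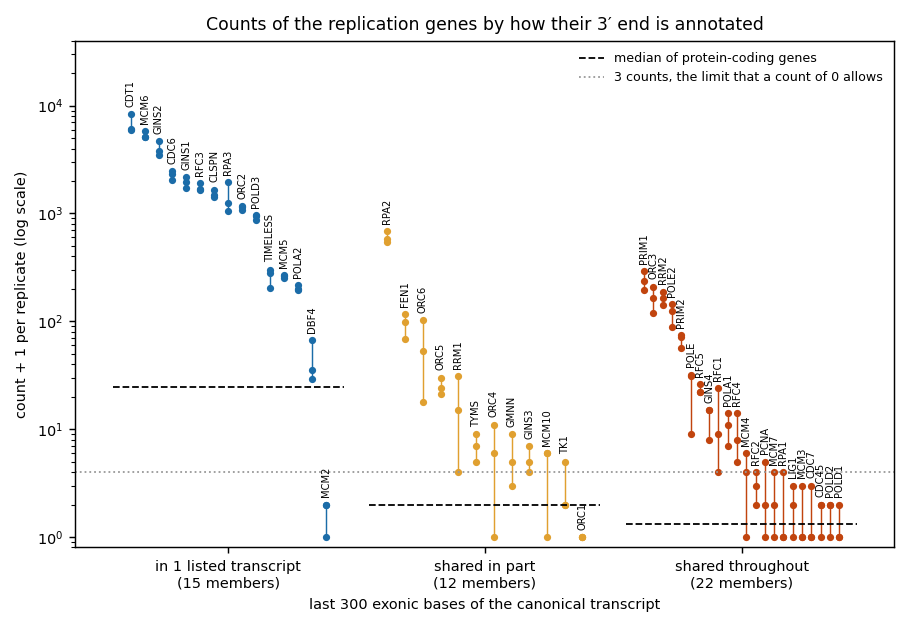
Count + 1 of each member in each replicate (points, log axis), grouped by how the last 300 bases of its canonical transcript are annotated, with the median of the protein-coding genes of each class dashed and the limit of 3 counts dotted. The free class lies between 28 and 8394 counts apart from MCM2, and no member shared throughout goes above 293 counts.

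The other 2 members with a free end on their own strand, MCM2 and GINS2, have a gene on the opposite strand. A long noncoding RNA gene, ENSG00000285600, covers 100% of the last 300 bases of MCM2, and it had 1, 0 and 2 counts itself. GSE1 covers 2.33% of those of GINS2, which had 3508 to 4671 counts. Of the protein-coding genes with an end free on its own strand and covered throughout on the other, as for MCM2, 39.1% were at the limit. Whether reads were assigned by strand is not given in the sources used here, and the part of the overlap in the count of MCM2 was not tested.

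The same contrast was seen within genes, between transcripts. Of 441 listed transcripts of the members, 136 have no exonic base of their own, and these held 2 of the 88794 member counts. The 159 transcripts with an own base among their last 300 held 99.8%. In the free class, 99.3% of the counts fell on the canonical transcript, and in the class shared throughout 0.196% did, where 20 of the 22 canonical transcripts had no count at all.

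Most counts of the shared class thus stand for other transcripts than the canonical one, apart from RPA1 and POLD2, whose 3 and 2 counts fell on the canonical one. For PRIM1 each of its 723 counts fell on a transcript of 1875 bases and none on the canonical one of 1423 bases. For ORC3 the counted transcript of 471 bases has 100% of its last 300 bases to itself, and the canonical one of 2512 bases has none and had no count. For RRM2 the counts were spread over 5 transcripts, of which the most used held 40.3%. PCNA and ORC1 have 2 listed transcripts each, which share their ends in full or nearly so, and had 5 and 0 counts in all.

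**Figure D4:**
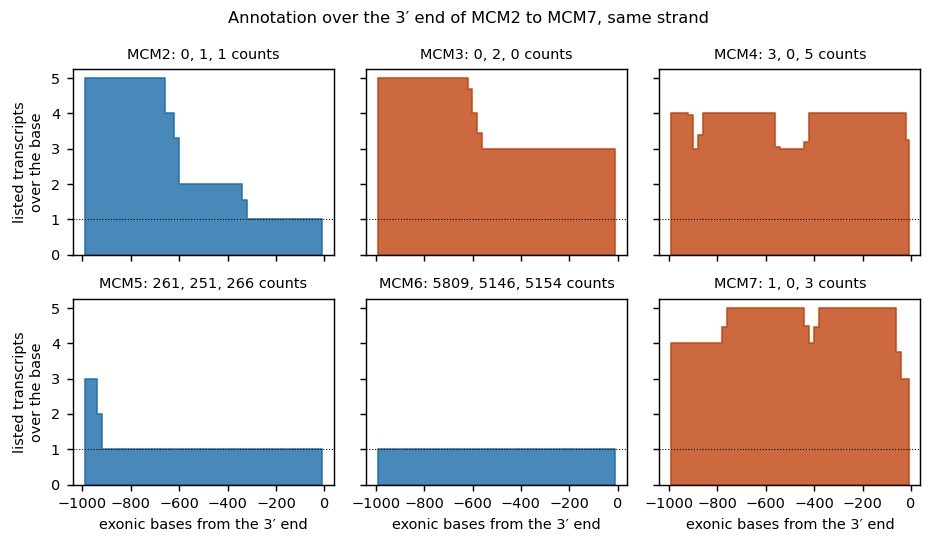
Number of listed transcripts, on the strand of the gene, over each exonic base of the last 1000 bases of the canonical transcripts of MCM2 to MCM7 (x axis, bases from the 3′ end, in steps), with the counts of the 3 replicates above each panel. MCM5 and MCM6, with 1 transcript over the last 300 bases, hold 251 to 5809 counts, MCM3, MCM4 and MCM7, with 3 or more, hold at most 5, and MCM2 has 1 transcript on its strand and at most 1 count.

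Other genes also overlap the ends of members. ENOSF1 covers 100% of that of TYMS and ACVR2A 100% of that of ORC4, both on the opposite strand, as does the noncoding ENSG00000253174 for GINS4. The noncoding ENSG00000287652 covers 12.3% of that of CDC45 on the opposite strand. On the same strand, ENSG00000142539 covers 42.3% of the end of POLD1, and NACA and ENSG00000285625 cover 16.3% and 48.3% of that of PRIM1. The values of these 6 members are uncertain for that reason, since a read on such bases can belong to either gene. Reads can also fall on processed copies of a gene. Of 21 annotated pseudogenes named after members, none had more than 13 counts in a replicate. That value was of DBF4P1, named here after its values were seen, beside 28 to 66 counts for DBF4. How many reads were left uncounted between a gene and its copies was not tested.

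The replicates were then compared as CPM of the nuclear counts alone, which leaves out the mitochondrial genes. At least 50 counts in every replicate were reached by 20 members. Over these the median log2 ratio of replicate 3 to the mean of the others was 0.09, beside 0.08 over 5656 nuclear genes filtered in the same way. Among the 20 members, 10 were higher in replicate 3 than in both others, against 51.2% of those genes, and 7 were lower, against 34.2%, so that the members were spread as the other genes were. The sign of the median turned with the scaling, to -0.22 with CPM of all counts and -0.14 with size factors from the median of ratios.

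Single members moved more than the median. RPA3 had the highest ratio, 0.72, and FEN1 the lowest, -0.72, with 116, 98 and 67 counts. Between replicates 1 and 2 the ratios ran from -0.43 to 0.41. The median coefficient of variation was 11.6% over the 20 members and 13.6% over the nuclear genes, beside 3.68% and 5.35% from counting error alone. ORC2 had the lowest value, 0.88%, and RPA3 the highest, 31.2%, beside 2.98% and 2.65% from counting error alone for these genes. With n = 3, a value below the counting error does not show ORC2 to be steadier than other genes. The mitochondrial share moved with replicate 3, and its part in these ratios was not tested.

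**Figure D5:**
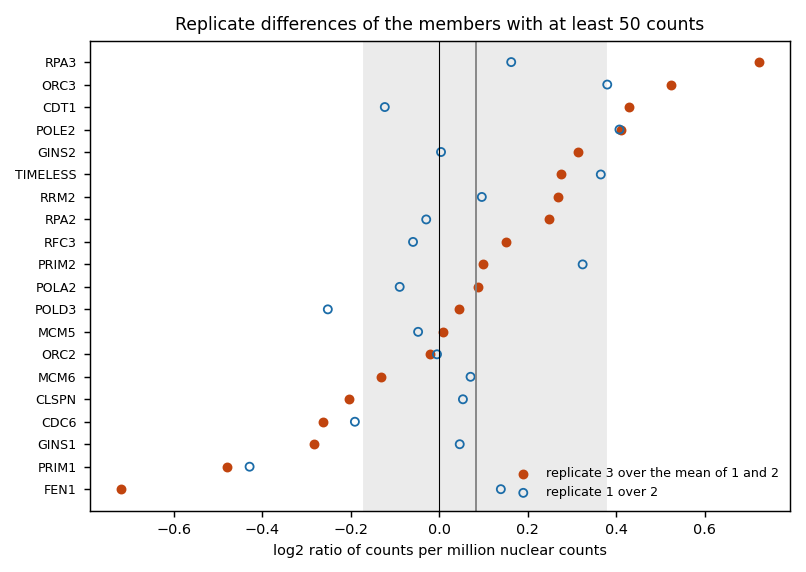
Log2 ratio, as CPM of the nuclear counts, of replicate 3 to the mean of replicates 1 and 2 (filled points) and of replicate 1 to replicate 2 (open points) for the 20 members with at least 50 counts in every replicate, with the interquartile range of 5656 nuclear genes shaded and their median as a grey line. RPA3 at 0.72 and FEN1 at -0.72 lie outside the shaded range on either side.

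The promoters were taken up next, from 250 bases before to 50 after the start. They were searched on both strands for TTTCCCGC, TTTGCCGC, TTTCGCGC and TTTGGCGC, spellings of the E2F consensus in which matches may overlap each other. Of 43 members with a promoter in the table, 18 held a site, against 4.56% of the promoters of protein-coding genes. The 6 without an entry were MCM4, MCM5, GINS4, POLD3, RPA2 and RPA3. TTTCCCGC was found in 10 members, TTTGGCGC in 6, TTTCGCGC in 5 and TTTGCCGC in none. In the same order, 2.27%, 0.93%, 0.81% and 0.72% of the promoters of protein-coding genes held them. The median GC content was 65.7% in the promoters of the members and 63.7% in those of protein-coding genes.

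By role, sites were found in CDC6 and CDT1 of the loaders, in MCM2, MCM3, MCM6 and MCM7, in GINS1, GINS2 and GINS3, in POLA1 and POLA2, in both polymerase epsilon genes, and in ORC3, RFC3, LIG1, TYMS and CLSPN. Of the high members with a promoter, 9 of 12 held a site, and of the members at the limit 4 of 11 did, namely MCM2, MCM3, MCM7 and LIG1. A 3′ end shared throughout is found in 9 of the 11 members at the limit, beside 4922 of 10142 such protein-coding genes. It is found in 4 of the 15 high members, beside 289 of the 2495 high protein-coding genes. The part of these ends in the counts was not tested. A low count is not a measure of a low message level by itself. PCNA and ORC1 held no E2F-type site in this window. A match describes letters only, and binding was not measured here.

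Since the study behind these data mapped i-motifs, the folds that C-rich DNA can take, the same promoters were searched for 4 tracts of at least 3 Cs with loops of 0 to 7 bases on either strand, a search added after the data had been seen. Such a run was found in 12 of the 43 members, against 34.5% of the promoters of protein-coding genes. It was present in CDT1, GINS2, POLE2 and RRM2 of the high members and in MCM2, RPA1 and LIG1 of those at the limit.

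Beyond the 49, a list of 81 further genes around replication was examined in 4 groups. Of these 57 were expressed, 24 were high and 20 were at the limit, beside 38.2%, 12.5% and 50.9% of the protein-coding genes. Of the 36 with an end shared throughout, 12 were at the limit, beside 62.8% of the protein-coding genes of that class. Of the 24 with a free end on their own strand 1 was, beside 36.8%, and this was CCNA2, the S phase cyclin, with no count in any replicate.

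Of 25 other replisome and firing genes, 17 were expressed. The topoisomerases that relax DNA ahead of the fork were the highest, TOP1 with 19593, 20724 and 12516 counts and 1036 ± 484 TPM, and TOP2A at 764 TPM. RECQL4, POLD4, CHTF8 and SSBP1 had no count. High counts with a shared end were found as well. TOP2A, with 99.7% of its last 300 bases shared, had 19192 to 21815 counts, and MCMBP, with 100% shared and named after its values were seen, had 1204 to 1344. Which of their transcripts held these counts was not examined. Over all protein-coding genes shared throughout, the highest mean count was 41814.

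Of 11 genes of chromatin assembly and maintenance, 10 were expressed and 6 were high. SUPT16H, a subunit of the FACT histone chaperone with 99.0% of its end shared, stood at 412 ± 178 TPM and ASF1B, which hands over newly made histones, at 222 ± 54 TPM. The lowest were UHRF1, with 2, 0 and 0 counts, and SLBP, with 15, 12 and 9.

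Of 17 further nucleotide supply genes, 14 were expressed. GART, of purine synthesis, stood at 177 ± 22 TPM, while DUT had 0, 0 and 2 counts and TK2 had 0, 2 and 3. GART was counted 1589 to 2185 times, and the end of its canonical transcript is shared throughout. Which of its transcripts held the counts was not examined.

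Of 28 genes of S phase control, 16 were expressed and 11 were at the limit, beside 38.2% and 50.9% of the protein-coding genes. TFDP1, the partner of the E2F proteins, stood at 808 ± 241 TPM and CDK2 at 514 ± 164 TPM. CDK6, named after its values were seen, had 2776 to 3588 counts with an end shared throughout, and the transcripts that held them were not examined. E2F4, E2F6, E2F8, CCNE1, CCNA2, CDK4 and CDC25A had no count in any replicate, and all but CCNA2 have an end shared by 98.7% to 100%.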

How the data were processed

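Total RNA of 3 replicates of HEK293T was extracted and sequenced with a QuantSeq 3′ mRNA-seq kit (the labels give the material as genomic DNA). The methods of the study call the replicates independent biological ones. The submitters' processing notes name Trimmomatic 0.38.0, HISAT2 2.2.1, featureCounts and hg38. Settings for strand and for reads on several features are not given in the sources used here. The authors deposited raw counts per Ensembl transcript, the transcript length in bases, and TPM, which is the count divided by that length and rescaled to 1000000 per library. Since reads come from the 3′ end whatever the length, this division raises short transcripts relative to long ones.

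Transcripts were matched without version to GENCODE v44 on GRCh38. Of 247541 transcripts, 223558 matched, and the other 23983 stayed in the library totals only. Counts and TPM were summed per gene, and CPM was computed from the totals. Means ± SD are over n = 3. Totals were 6262175 to 8521624 counts, which put the limit of a 0 count at 0.352 to 0.479 CPM. RefSeq promoters (GRCh38.p14) were taken at the listed start nearest the canonical one. Complex ratios were formed only where the lowest subunit had more than 3 counts in a replicate.

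The 49 members, the further gene lists and the motifs were chosen with earlier results of these data known. Named were all members, of each further group the 2 highest and 2 lowest genes (with ties), genes that overlap a member's last 300 bases, and the markers. The values of 1 gene that this rule names are not reported here. The alternatives were other thresholds, scalings, windows and motifs, and leaving out each replicate. Python 3.11.15, numpy 2.4.6, pandas 2.3.3 and matplotlib 3.10.9 were used, and the scripts were tested on simulated data.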

Additional observations from a re-analysis of the deposited data

How the results depend on the processing

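Of 50 alternatives to the values in the report, 38 stayed within 1.5 times a count or within the spread between replicates, and 12 did not. With at least 10 TPM, 20 members were expressed. The median level was 12.0 TPM over the expressed members alone and 5.57 TPM with mitochondrial genes left out. The members at the limit were 1 with 0 counts in every replicate and 18 with under 10. The GINS ratio ran from 274 to 1482 without one replicate each, with the highest value without replicate 2, and in CPM it was 888, while the PRIM1 to POLA1 ratio was 25.9 in CPM. The median log2 ratio of replicate 3 was -0.22 with CPM of all counts, where the mitochondrial counts enter the totals. It was -0.14 with median of ratios size factors, which are taken from the genes and not from the totals. A 3′ end with more than 50% of its bases shared was found in 34 members. For this count, and for those at 10 TPM, at 0 counts and under 10 counts, shares over protein-coding genes are not given here. E2F-type sites shortened by 1 base were found in 29 members and in 17.64% of the promoters of protein-coding genes. Tracts of at least 2 Cs were found in all 43 members with a promoter, and their share over protein-coding genes is not given here. This alternative, the C-tract search itself and the use of each listed promoter of a gene were added after seeing the data. No paired analysis was possible because only 1 condition was measured. At this depth a count of 0 does not separate no message from a level of up to 0.352 to 0.479 CPM. This limit covers counting error only. How reads on shared bases were counted was not tested, so the limit does not bound the message of genes with a shared end.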
